A study of Mus musculus with 6 samples.

Results

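De novo lipogenesis is the making of fatty acids from citrate, and 10 genes of this pathway were followed here among the 23284 genes counted in mouse liver. They were chosen by their role in the pathway, with earlier results of these data known. Acly and Acss2 make cytosolic acetyl-CoA, Acaca and Acacb carboxylate it, Fasn and Me1 build the fatty acid and supply NADPH, Elovl6 and Scd1 lengthen and desaturate it, and Thrsp and Mlxipl regulate the pathway. All 10 were detected in all 6 livers and passed the filter on low counts, with 400 reads (Acacb) to 53035 reads (Scd1) in a library.

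The livers came from FXR-floxed male mice that were injected at 8 weeks of age through the tail vein with AAV8 carrying Cre recombinase under the TBG promoter. The same injection gave them a second AAV8-TBG virus carrying FXR. It was FXR-WT in 3 mice and, in the other 3 mice, Y67F-FXR, in which tyrosine 67 cannot be phosphorylated. The paper describes its Flag-FXR as human but does not give the tag or species for this virus. Both groups therefore carried Cre, and both received cholic acid (CA) chow at 0.5% for 6 h, 4 weeks after injection. The TBG promoter is active in hepatocytes, so neither Cre nor the transgene was meant for other liver cells. FXR (gene Nr1h4) is the nuclear receptor for bile acids.

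In liver, lipogenesis is driven after feeding by insulin through SREBP-1c, the product of Srebf1, and by glucose through ChREBP, the product of Mlxipl. ATP citrate lyase and acetyl-CoA synthetase feed acetyl-CoA to acetyl-CoA carboxylase, whose product malonyl-CoA is the substrate of fatty acid synthase. Malonyl-CoA made by the carboxylase encoded by Acacb also restrains the entry of fatty acids into mitochondria.

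None of the 10 genes was called as different between Y67F-FXR and FXR-WT livers, and they did not share a direction. Fasn, Mlxipl and Elovl6 were lower in each Y67F-FXR liver than in any FXR-WT liver, and Acacb was higher in each Y67F-FXR liver. The fitted log2 fold changes, Y67F-FXR over FXR-WT, ran from -0.52 for Mlxipl to 0.54 for Acacb. Calls needed a Benjamini-Hochberg adjusted p under 0.05 over 12453 genes in edgeR's quasi-likelihood test and a fitted fold change over 1.5. Calls were made for 121 genes, or 0.972% of those tested, against 0 of the 10 lipogenic genes. DESeq2 and edgeR's likelihood ratio test also called 0 of the 10, beside 3.6% and 3.59% of all genes with an adjusted p. Of the 121 genes, 68 were higher and 53 lower, and scaling by the library totals alone split the calls into 52 higher and 68 lower.

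The promoters of the 4 genes whose groups did not overlap are shown because these genes share a pathway but differ in direction. Each sequence is the 250 bases before the annotated start of a transcript in RefSeq, on build GRCm38.p6, read on the strand of the gene. Fasn lies on the minus strand (chr11:120824548-120824797), and Mlxipl (chr5:135089640-135089889, the more upstream of its 2 annotated starts), Elovl6 (chr3:129532136-129532385) and Acacb (chr5:114165268-114165517) lie on the plus strand. Capitals mark the letters searched for on both strands, which were the E-box CACGTG, the NF-Y box CCAAT, the GC box GGGCGG, and the sterol element forms CACCCCAC and TCACNCCAC.
Fasn: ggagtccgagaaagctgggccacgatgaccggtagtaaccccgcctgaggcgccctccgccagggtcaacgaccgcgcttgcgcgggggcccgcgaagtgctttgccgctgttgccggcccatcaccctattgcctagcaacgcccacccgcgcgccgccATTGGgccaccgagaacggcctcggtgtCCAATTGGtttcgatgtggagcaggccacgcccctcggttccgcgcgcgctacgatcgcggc
Mlxipl: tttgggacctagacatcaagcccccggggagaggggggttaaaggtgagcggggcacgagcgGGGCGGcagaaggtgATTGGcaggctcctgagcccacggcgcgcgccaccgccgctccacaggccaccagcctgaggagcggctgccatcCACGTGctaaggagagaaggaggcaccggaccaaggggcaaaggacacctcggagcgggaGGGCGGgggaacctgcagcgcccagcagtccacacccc
Elovl6: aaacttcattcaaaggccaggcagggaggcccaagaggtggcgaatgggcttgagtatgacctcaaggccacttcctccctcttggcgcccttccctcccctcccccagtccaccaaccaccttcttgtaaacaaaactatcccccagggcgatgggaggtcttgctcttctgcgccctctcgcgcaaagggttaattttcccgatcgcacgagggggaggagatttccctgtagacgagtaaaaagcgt
Acacb: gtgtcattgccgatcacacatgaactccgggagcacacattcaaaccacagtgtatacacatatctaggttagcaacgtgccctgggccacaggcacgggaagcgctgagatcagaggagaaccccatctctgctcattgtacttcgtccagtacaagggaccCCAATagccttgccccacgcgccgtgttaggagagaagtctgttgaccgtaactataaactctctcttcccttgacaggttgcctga

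The Fasn window held the NF-Y box 3 times, and its last pair overlapped, 1 on each strand, at 62 and 59 bases before the start. The Acacb window held 1 NF-Y box, and the Elovl6 window held none of the searched letters. The Mlxipl window held an E-box 98 bases before the start, an NF-Y box and 2 GC boxes. Of the 10 genes, 9 were matched in the promoter table used here, with 11 windows in all, and Scd1 was not. An NF-Y box stood in 6 of the 11 windows and in 33.8% of all 32851 windows, a GC box in 4 of the 11 and in 32.7% of all windows, and an E-box in 1 window, of Mlxipl, and in 6.02% of all windows. The NF-Y box of Me1 stood in the second of its 2 windows and the GC boxes in the first. The sterol form TCACNCCAC occurred only in the second window of Mlxipl (1.05% of all windows), and CACCCCAC in none of the 11 (2.58% of all windows). These matches are letters in a window and were not set against the measured differences.

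Library totals lay between 19551113 and 22053320 reads on genes, and the 10 genes took from 0.209% to 0.327% of them. Nr1h4 averaged 186 ± 30.2 CPM (SD, n = 3) in the FXR-WT group and 175 ± 9.84 CPM (SD, n = 3) in the Y67F-FXR group. Here CPM are the usual read counts scaled to library size with TMM factors. These counts cannot separate transcripts of the mouse's own gene from transcripts of the transgene that align to it, so they do not check the labels. All 8 hepatocyte markers were detected, and their summed level was 110586 to 119809 CPM in FXR-WT and 110333 to 128897 CPM in Y67F-FXR livers. Since adipose tissue also makes fatty acids, 7 adipocyte markers were examined. The 3 that passed the filter on low counts, Fabp4, Cfd and Cidea, summed to at most 25.6 CPM in FXR-WT and 26.7 CPM in Y67F-FXR livers, and of the other 4, over all 6 livers, Lep had 0 reads, Adipoq 13, Plin1 3 and Retn 6. No marker of hepatocytes, adipocytes, leukocytes, stellate cells, cholangiocytes, endothelium or erythrocytes was called by edgeR's quasi-likelihood test, beside 0.972% of all tested genes. Unadjusted p was under 0.05 for 3 of 6 stellate, 1 of 7 leukocyte and 1 of 5 endothelial markers, beside 13.4% of tested genes. All of these had a lower fitted value in Y67F-FXR, and they are named after their values were seen. The log2 fold changes were -1.15 for Lrat, -1.95 for Acta2 and -0.77 for Col1a1 of the stellate cells. They were -2.73 for S100a8 of the leukocytes and -0.89 for Lyve1 of the endothelium. S100a8 was near the floor, with means of 1.03 CPM in FXR-WT and 0.15 CPM in Y67F-FXR livers and 75 reads in all. Of the lists of these 2 genes, 4 of 7 leukocyte and 2 of 5 endothelial markers had a higher fitted value in Y67F-FXR. Acta2 had 9.88 CPM in FXR-WT replicate 1, against 1.56 CPM in FXR-WT replicate 3 and at most 1.58 CPM in Y67F-FXR livers, and its groups overlapped. DESeq2 called Lrat, and the likelihood ratio test called Lrat and S100a8, beside 3.6% and 3.59% of all genes with an adjusted p.

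The summed markers of Kupffer cells and leukocytes (7 genes) were 130 to 191 CPM in FXR-WT and 106 to 251 CPM in Y67F-FXR livers, those of cholangiocytes (5 genes) 46.0 to 71.1 and 54.1 to 60.6 CPM, and those of endothelium (5 genes) 144 to 172 and 146 to 157 CPM. Stellate cell markers (6 genes) summed to 191 to 203 CPM in FXR-WT and 136 to 196 CPM in Y67F-FXR livers, and 5 of the 6 had a lower fitted value in Y67F-FXR. The part of these markers in the lipogenic values was not tested. Of 5 erythrocyte markers, the globin genes Hba-a1, Hba-a2 and Hbb-b1 had 0 reads and Hbb-bt was not matched. Alas2 had 80.1 to 89.3 CPM in FXR-WT and 86.5 to 114 CPM in Y67F-FXR livers. Multi-mapping and ambiguous reads were excluded from the counts, so the 0 globin reads are no measure of blood. In whole liver, fewer cells of a type and less RNA per cell cannot be told apart. Libraries of the same group also differed by gene length. The longest 20% of the tested genes (from 4729 bp) deviated from their own means by a median log2 value of -0.13 in FXR-WT replicate 1 and of -0.17 in the second Y67F-FXR liver, against 0.11 in FXR-WT replicate 3 and 0.19 in the first Y67F-FXR liver. Fasn, Acaca, Acacb, Elovl6 and Scd1 belong to this long class.

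Per length of transcript, Scd1 was the most abundant of the 10 genes, with a mean over the 6 livers of 402 RPKM (CPM per kilobase of exon), followed by Thrsp (89.9 RPKM), Mlxipl (41.2 RPKM), Acss2 (35.2 RPKM), Me1 (27.8 RPKM), Acly (23.8 RPKM), Fasn (14.4 RPKM), Elovl6 (7.39 RPKM), Acaca (4.36 RPKM) and Acacb (3.86 RPKM). In this order Scd1 and Thrsp, Thrsp and Mlxipl, Fasn and Elovl6, and Elovl6 and Acaca had ranges over the livers that did not overlap. The other neighbours overlapped, although Acly was above Fasn in 6 of 6 livers. The order of the carboxylase genes followed the group, with Acaca above Acacb per length in all 3 FXR-WT livers and below it in all 3 Y67F-FXR livers. In FXR-WT livers Acaca had 4.54 ± 0.510 and Acacb 3.14 ± 0.750 RPKM (SD, n = 3), and in Y67F-FXR livers they had 4.17 ± 0.186 and 4.58 ± 0.386 RPKM (SD, n = 3).

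Of the enzymes that make acetyl-CoA, Acly (chromosome 11 of mm9, 100337666 to 100389314, minus strand, 29 exons) had 123, 91.5 and 113 CPM in FXR-WT replicates 1 to 3 and 115, 83.5 and 107 CPM in Y67F-FXR replicates 1 to 3. The groups overlapped, and the second liver was the lowest in each of them. The log2 fold change of Acly was -0.10 (95% interval -0.48 to 0.28), with a Benjamini-Hochberg adjusted p of 0.872 by edgeR's quasi-likelihood test. Acss2 (chromosome 2 of mm9, 155343779 to 155388479, plus strand, 18 exons), which makes acetyl-CoA from acetate, had 97.6, 100.1 and 106 CPM in FXR-WT and 98.0, 88.9 and 108 CPM in Y67F-FXR livers. Again the groups overlapped, and Y67F-FXR replicate 2 was the lowest. Acss2 shares 113 exon bases with 4930471I20Rik on the other strand, and without strand their reads cannot be told apart there. Acss2 had a log2 fold change of -0.05 (95% interval -0.32 to 0.23), with an adjusted p of 0.923 from the same test. The intervals of both genes lay inside a 1.5-fold change in either direction.

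Acetyl-CoA carboxylase is the committed step, and its genes had fitted values of opposite sign, neither of them called. Acaca (chromosome 11 of mm9, 84008940 to 84215153, plus strand, 54 exons), the cytosolic form, had 45.2, 41.9 and 36.1 CPM in FXR-WT and 35.8, 38.7 and 38.6 CPM in Y67F-FXR livers. Here the groups overlapped, since FXR-WT replicate 3 lay among the Y67F-FXR livers. Acaca had a log2 fold change of -0.12 (95% interval -0.41 to 0.17; Benjamini-Hochberg adjusted p = 0.759 by edgeR's quasi-likelihood test). It was -0.05 without FXR-WT replicate 1 and -0.21 without FXR-WT replicate 3.

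Acacb (chromosome 5 of mm9, 114615527 to 114700767, plus strand, 52 exons), the form at the mitochondrial membrane, had 19.6, 28.6 and 31.8 CPM in FXR-WT and 36.3, 42.6 and 37.7 CPM in Y67F-FXR livers. All Y67F-FXR livers lay above all FXR-WT livers, and FXR-WT replicate 1 was the lowest of all. Its log2 fold change was 0.54 (standard error, SE, 0.187, 95% interval 0.11 to 0.97), the largest of the 10 genes, with an unadjusted p of 0.0199 and a Benjamini-Hochberg adjusted p of 0.253 by edgeR's quasi-likelihood test. Without FXR-WT replicate 1, which was also low for long genes in general, the log2 fold change of Acacb was 0.36, and with offsets for gene length it was 0.56.

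Fasn (chromosome 11 of mm9, 120667272 to 120685861, minus strand, 43 exons), the synthase that assembles palmitate, had 191, 153 and 148 CPM in FXR-WT and 127, 96.4 and 141 CPM in Y67F-FXR livers. No Y67F-FXR liver reached the lowest FXR-WT liver, but the gap between Y67F-FXR replicate 3 and FXR-WT replicate 3 was small beside the spread within the groups. The log2 fold change of Fasn was -0.43 (SE 0.175, 95% interval -0.84 to -0.03). Its unadjusted p was 0.0386 and its Benjamini-Hochberg adjusted p 0.338 by edgeR's quasi-likelihood test. The highest liver, FXR-WT replicate 1, and the lowest, Y67F-FXR replicate 2, were both low for long genes in general. With offsets for gene length the log2 fold change of Fasn was -0.47. Without FXR-WT replicate 1 it was -0.31, and without Y67F-FXR replicate 2 it was -0.30.

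Me1 (chromosome 9 of mm9, 86474970 to 86589947, minus strand, 15 exons) encodes the cytosolic malic enzyme, which makes NADPH. It had 70.4, 106 and 90.4 CPM in FXR-WT and 105, 113 and 111 CPM in Y67F-FXR livers. The Y67F-FXR livers lay close together, and of the FXR-WT livers only replicate 2 reached their range. Here 30 exon bases are shared with A330041J22Rik on the other strand. Me1 had a log2 fold change of 0.30 (95% interval -0.06 to 0.67; Benjamini-Hochberg adjusted p = 0.474 by edgeR's quasi-likelihood test). Without FXR-WT replicate 1 it was 0.16.

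Elovl6 and Scd1, which act on the finished palmitate, also had fitted values of opposite sign. Elovl6 (chromosome 3 of mm9, 129235304 to 129341411, plus strand, 5 exons), the elongase of palmitate, had 46.2, 47.6 and 49.4 CPM in FXR-WT and 45.2, 32.0 and 43.3 CPM in Y67F-FXR livers. The groups did not overlap, but Y67F-FXR replicate 1 lay just under the lowest FXR-WT liver, and Y67F-FXR replicate 2 lay well below the rest. Elovl6 had a log2 fold change of -0.25 (95% interval -0.60 to 0.10; Benjamini-Hochberg adjusted p = 0.560 by edgeR's quasi-likelihood test), and without Y67F-FXR replicate 2 it was -0.12.

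Scd1 (chromosome 19 of mm9, 44468940 to 44482199, minus strand, 6 exons), the desaturase that makes oleate and palmitoleate, had 1256, 2170 and 1508 CPM in FXR-WT and 2362, 1827 and 2532 CPM in Y67F-FXR livers. The groups overlapped, since FXR-WT replicate 2 was above Y67F-FXR replicate 2. Its log2 fold change was 0.45 (SE 0.223, 95% interval -0.07 to 0.96; Benjamini-Hochberg adjusted p = 0.449 by edgeR's quasi-likelihood test). It was 0.28 without FXR-WT replicate 1 and 0.70 without FXR-WT replicate 2. Scd1 alone held from 60.3% to 75.1% of the reads of the 10 genes, so that their sum followed Scd1.

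Thrsp (chromosome 7 of mm9, 104561467 to 104566020, minus strand, 2 exons), the hormone-responsive protein Spot 14, had 88.2, 111 and 72.7 CPM in FXR-WT and 88.7, 83.7 and 115 CPM in Y67F-FXR livers. The groups overlapped throughout. Its log2 fold change was 0.08 (95% interval -0.36 to 0.52; Benjamini-Hochberg adjusted p = 0.921 by edgeR's quasi-likelihood test).

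Mlxipl (chromosome 5 of mm9, 135582761 to 135614252, plus strand, 17 exons), which encodes ChREBP, had 146, 182 and 203 CPM in FXR-WT and 132, 98.1 and 140 CPM in Y67F-FXR livers. All Y67F-FXR livers lay below all FXR-WT livers, with Y67F-FXR replicate 3 next to FXR-WT replicate 1. Mlxipl had the lowest log2 fold change of the 10 genes, -0.52 (SE 0.180, 95% interval -0.93 to -0.10), with an unadjusted p of 0.0204 and a Benjamini-Hochberg adjusted p of 0.255 by edgeR's quasi-likelihood test. By the same test its adjusted p was 0.0892 with offsets for gene length, the lowest of the alternatives. It was 0.529 without FXR-WT replicate 2, the highest. Without Y67F-FXR replicate 2 the log2 fold change of Mlxipl was -0.39.

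**Figure D1:**
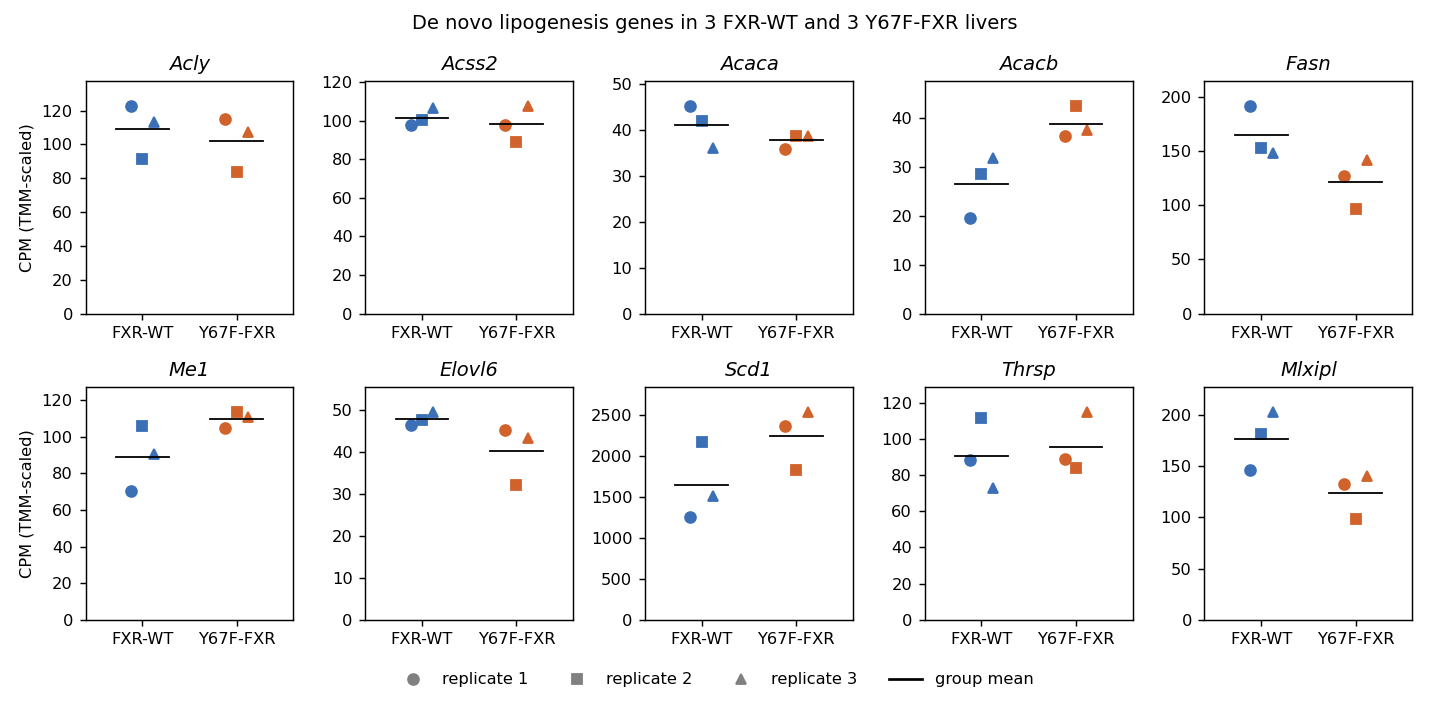
Each panel plots 1 lipogenic gene, with CPM scaled by TMM factors on a vertical axis that starts at 0 and the group on the horizontal axis; points are livers and lines are group means. Fasn, Elovl6 and Mlxipl points are lower and Acacb points higher in all 3 Y67F-FXR livers, and the other 6 genes overlap.

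As a group, 6 of the 10 genes had a lower and 4 a higher fitted value in Y67F-FXR, against 48% lower among all tested genes. Their median log2 fold change was -0.07, beside 0.01 over all tested genes. The groups did not overlap for 4 of the 10 genes, against 20.6% of all tested genes, and an unadjusted p under 0.05 was found for 3 of the 10 (Fasn, Acacb and Mlxipl), against 13.4% of all tested genes. With so few genes these shares describe the list and were given no test.

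**Figure D2:**
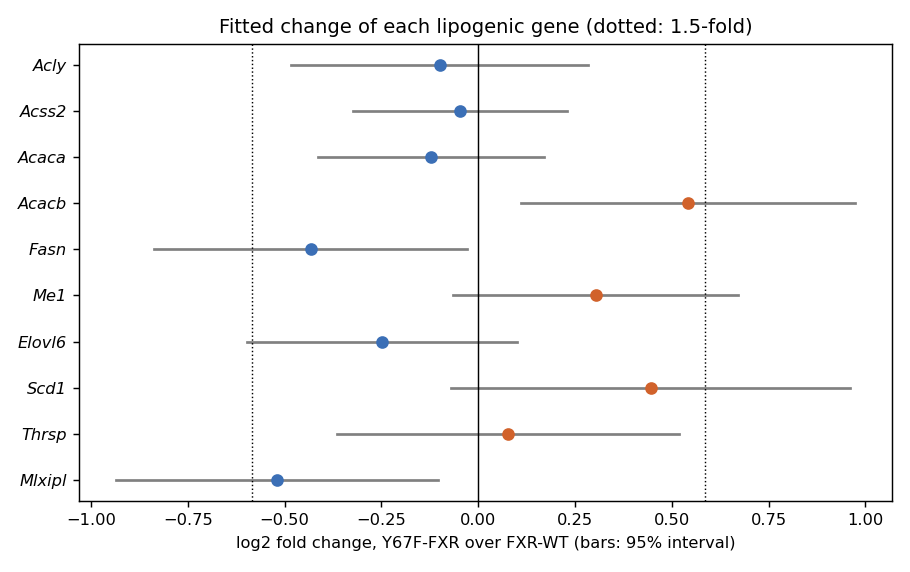
Fitted log2 fold change, Y67F-FXR over FXR-WT, of each lipogenic gene (horizontal axis) with its 95% interval as a bar; dotted lines mark a 1.5-fold change, blue points are lower and orange points higher in Y67F-FXR. The intervals of Acacb, Fasn and Mlxipl leave out 0 before adjustment for multiple tests, and no gene was called.

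The livers also differed within groups, and not in the same way for each gene. Y67F-FXR replicate 2 was the lowest of the 6 livers for Fasn, Acly, Acss2, Elovl6 and Mlxipl but the highest for Acacb and Me1. FXR-WT replicate 1 was the lowest for Acacb, Scd1 and Me1 and the highest for Fasn, Acaca and Acly. The median deviation of the 10 genes from their means was -0.15 (log2) in Y67F-FXR replicate 2 and 0.12 in FXR-WT replicate 2.

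**Figure D3:**
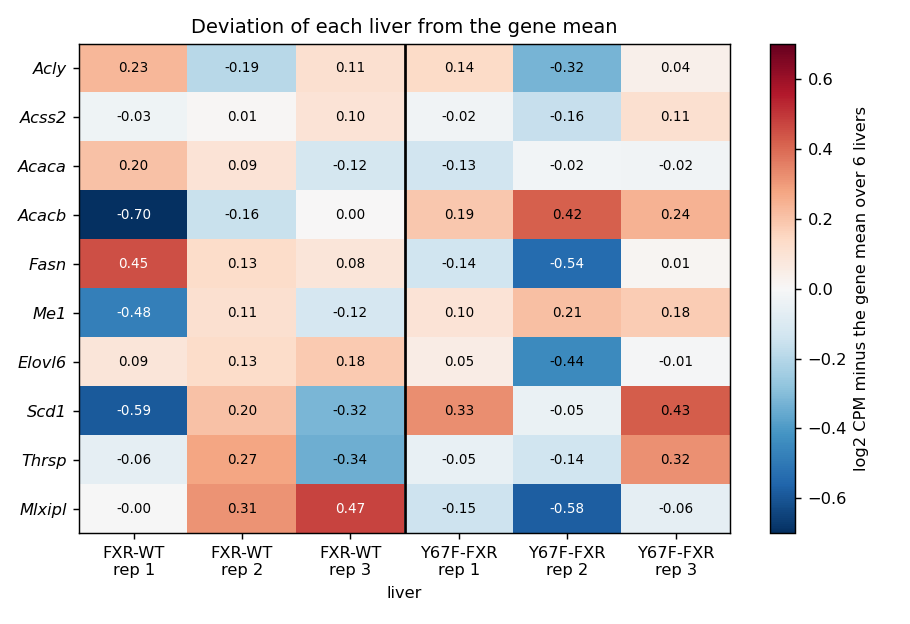
Deviation of log2 CPM from the mean of the gene, for the 10 lipogenic genes (rows) in each liver (columns), with red above and blue below the mean. Acacb deviates by -0.70 and Fasn by 0.45 in FXR-WT replicate 1, and Fasn by -0.54 and Acacb by 0.42 in Y67F-FXR replicate 2.

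For 4 pairs of genes a ratio was taken within each liver, where the scaling of the library cancels. The pairs were chosen with the values of these livers known, so the ratios describe the same differences in another form and are given no test. They are ratios of CPM and not per length, so only their differences between livers are read. The log2 ratio of Acacb to Acaca was -1.20, -0.55 and -0.18 in FXR-WT and 0.02, 0.14 and -0.03 in Y67F-FXR livers. It was higher in each Y67F-FXR liver, with a mean difference of 0.69 (1.61-fold). The log2 ratio of Scd1 to Fasn, the desaturase to the synthase, was 2.71, 3.82 and 3.35 in FXR-WT and 4.21, 4.24 and 4.16 in Y67F-FXR livers. It too was higher in each Y67F-FXR liver and there almost constant, with a mean of 3.30 ± 0.557 (SD, n = 3) in FXR-WT and 4.21 ± 0.0408 (SD, n = 3) in Y67F-FXR, and a mean difference of 0.91 (1.88-fold). Both differences were smaller without FXR-WT replicate 1, where the ratio of Acacb to Acaca differed by 0.41 and that of Scd1 to Fasn by 0.62. The ratio of Acss2 to Acly differed by 0.05 and that of Mlxipl to Srebf1 by -0.09, with groups that overlapped.

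**Figure D4:**
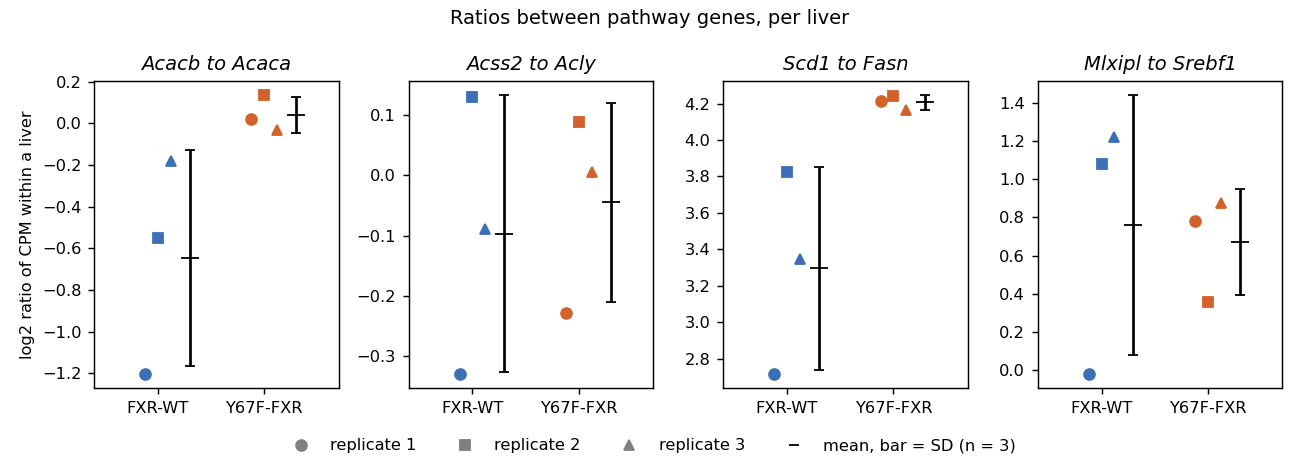
Log2 ratio of CPM within a liver (vertical axis, with a scale of its own in each panel) for 4 pairs of genes by group; points are livers, with the mean and SD (n = 3) beside them. The ratios of Acacb to Acaca and of Scd1 to Fasn are higher in all 3 Y67F-FXR livers, and the other ratios overlap.

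Over the 6 livers, the genes with the pattern most like Fasn of the 7164 genes that averaged 10 CPM or more were Traf7 (Pearson r of log2 CPM 0.988), Cetn2 (0.981), Wdr55 (0.979), Mrps27 (0.977) and Exosc1 (0.977). None of them is a lipogenic gene, and 80 genes had an r above 0.9. Among the 10 genes, r with Fasn was 0.81 for Elovl6, 0.70 for Acly and 0.68 for Mlxipl, and it was -0.90 for Acacb, -0.79 for Me1 and -0.43 for Scd1. With the group means removed, r was 0.66 for Elovl6, 0.78 for Acly, 0.24 for Mlxipl, -0.77 for Acacb, -0.58 for Me1 and 0.10 for Scd1, so that the value of Scd1 changed sign. The livers share the group difference and the length differences between libraries, and with 6 points these values are descriptions.

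The genes around SREBP-1c and LXR are reported here in part, so no count or median of that list is given. Insig2, which holds SREBP precursors in the endoplasmic reticulum, rose from 61.5, 65.0 and 67.2 CPM to 134, 135 and 106 CPM, so that the groups were well apart. The log2 fold change of Insig2 was 0.95 (Benjamini-Hochberg adjusted p = 0.0244 by edgeR's quasi-likelihood test), but with any 1 of the 6 livers left out its adjusted p was between 0.0537 and 0.105.

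Insig1, the SREBP-responsive partner of Insig2, had 171, 204 and 200.3 CPM in FXR-WT and 92.2, 73.9 and 139 CPM in Y67F-FXR livers, with a log2 fold change of -0.92 and a Benjamini-Hochberg adjusted p of 0.124 by edgeR's quasi-likelihood test. Insig1 was called by DESeq2 (adjusted p = 0.00690). Srebf1 itself had 149, 86.0 and 86.8 CPM in FXR-WT and 76.9, 76.6 and 76.4 CPM in Y67F-FXR livers. The groups of both genes did not overlap, but for Srebf1, which shares 107 exon bases with Rai1 on the other strand, most of the difference lay in FXR-WT replicate 1. The log2 fold change of Srebf1 was -0.48 (adjusted p = 0.389 by the quasi-likelihood test of edgeR), and without that liver it was -0.18. The coactivator gene Ppargc1b had a log2 fold change of 0.67 at a mean of 2.98 CPM in FXR-WT and 4.75 CPM in Y67F-FXR livers (Benjamini-Hochberg adjusted p = 0.225 by the same test).

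Of 13 partners and targets of ChREBP outside the 10 genes, 11 had a higher fitted value in Y67F-FXR and 2 a lower one, 3 were called higher and 0 lower, and the median log2 fold change was 0.30, while Mlxipl itself had a lower fitted value. Over all tested genes, 48% had a lower fitted value and 0.972% were called. The 2 lower genes, Mlx (-0.36), the partner of ChREBP, and Fgf21 (-1.64), a hormone of the fasted liver, were not called, and are named after their values were seen. Fgf21 had 63.0 CPM in FXR-WT replicate 1 and at most 14.6 CPM in the other livers. Txnip, an arrestin-related protein that restrains glucose uptake, rose from 35.3, 65.0 and 46.9 CPM to 201, 164 and 162 CPM (log2 fold change 1.84, Benjamini-Hochberg adjusted p = 0.0175 by edgeR's quasi-likelihood test). Txnip shares 606 exon bases with Gm15441 on the other strand, and since strand was not used its counts are uncertain. Its relative Arrdc4 rose from 7.53, 8.44 and 6.91 CPM to 21.3, 18.0 and 18.7 CPM (log2 fold change 1.34, adjusted p = 0.0139 from that test). G6pc, the glucose-6-phosphatase of glucose output, rose from 13.3, 52.6 and 31.5 CPM to 471, 281 and 293 CPM (log2 fold change 3.42, adjusted p = 0.0244 from that test). The groups of these 3 genes lay far apart, yet without FXR-WT replicate 3 the adjusted p was 0.0884 for Txnip, 0.0614 for Arrdc4 and 0.105 for G6pc, and without Y67F-FXR replicate 3 it was 0.0648, 0.0529 and 0.0810. For G6pc it was 0.0571 without Y67F-FXR replicate 1.

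No gene was called among 15 that supply citrate, acetyl-CoA and NADPH (median log2 fold change 0.11), beside 0.972% of all tested genes. The same held for 13 that modify the carboxylases and the synthase (median 0.03) and 12 that use the fatty acids made (median 0.06). An unadjusted p under 0.05 was found for 1, 1 and 5 genes of these lists, beside 13.4% of all tested genes. DESeq2 and the likelihood ratio test called 0 supply genes and 0 modifiers, beside 3.6% and 3.59% of all genes with an adjusted p. Among the genes of fatty acid use DESeq2 called Acsl4 and Lpin1 and the likelihood ratio test Lpin1. The smallest adjusted p values of the supply genes were those of Pcx, the pyruvate carboxylase (log2 fold change 0.42, adjusted p = 0.246), G6pdx, of the pentose phosphate pathway (-0.48, 0.412), and the citrate carrier Slc25a1 (0.26, 0.522), each Benjamini-Hochberg adjusted by edgeR's quasi-likelihood test. Among the modifiers they were those of Mid1ip1 (-0.71, 0.258), which promotes the assembly of acetyl-CoA carboxylase and is the relative of Thrsp, and of the kinase genes Prkab1 (-0.23, 0.537) and Stk11 (0.13, 0.719). Without FXR-WT replicate 1, the log2 fold change was -0.38 for Mid1ip1, -0.12 for Prkab1 and -0.31 for G6pdx, and without Y67F-FXR replicate 2 it was 0.15 for Slc25a1 and 0.04 for Stk11. Among the genes of fatty acid use, the acyl-CoA synthetase Acsl4 had a log2 fold change of -0.61 (0.166), Lpin1 of 1.14 (0.198) and Lpin2 of 0.76 (0.212). With gene length offsets Acsl4 was called (adjusted p = 0.0465 by edgeR's quasi-likelihood test).

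Of 14 paralogs of the 10 genes, 10 were tested and 1 was called, beside 0.972% of all tested genes. Elovl3, an elongase of very long chains, rose from 21.4, 44.4 and 37.9 CPM in FXR-WT to 106, 98.8 and 106 CPM in Y67F-FXR livers, while its relative Elovl6 lay on the other side. The log2 fold change of Elovl3 was 1.58, with a Benjamini-Hochberg adjusted p of 0.0336 by edgeR's quasi-likelihood test, and it was called without FXR-WT replicate 1 (adjusted p = 0.0200) but not without any of the other 5 livers, where the adjusted p was 0.0559 to 0.137. For Elovl1 the log2 fold change was -0.43 (adjusted p = 0.220 from the same test). The paralogs Scd3, Scd4, Me3 and Elovl7 had 1, 2, 26 and 31 reads over the 6 livers and were not tested.

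Since lipogenesis follows feeding, genes that respond to insulin or feeding were set beside it. This list too is reported here in part, and no count, direction or median of it is given. Pck1, of gluconeogenesis, had 1519, 2639 and 1637 CPM in FXR-WT and 4798, 3756 and 3807 CPM in Y67F-FXR livers (log2 fold change 1.09, Benjamini-Hochberg adjusted p = 0.0872 by edgeR's quasi-likelihood test). Angptl4, an inhibitor of lipoprotein lipase, had 25.0, 83.9 and 71.2 CPM in FXR-WT and 209.9, 166 and 192 CPM in Y67F-FXR livers (log2 fold change 1.66, adjusted p = 0.106 from that test). The groups of both genes were apart, but neither was called, although DESeq2 gave adjusted p values of 0.000497 and 0.000555. The quasi-likelihood test of edgeR called Pck1 without FXR-WT replicate 2 (adjusted p = 0.0409) and with gene length offsets (adjusted p = 0.0423), and Angptl4 without FXR-WT replicate 1 (adjusted p = 0.0227). Pdk4, the kinase that holds back pyruvate dehydrogenase, had 3.47, 3.39 and 2.51 CPM in FXR-WT and 8.70, 5.35 and 4.63 CPM in Y67F-FXR livers (log2 fold change 1.00, adjusted p = 0.166 by edgeR's quasi-likelihood test and 0.0368 by DESeq2).

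**Figure D5:**
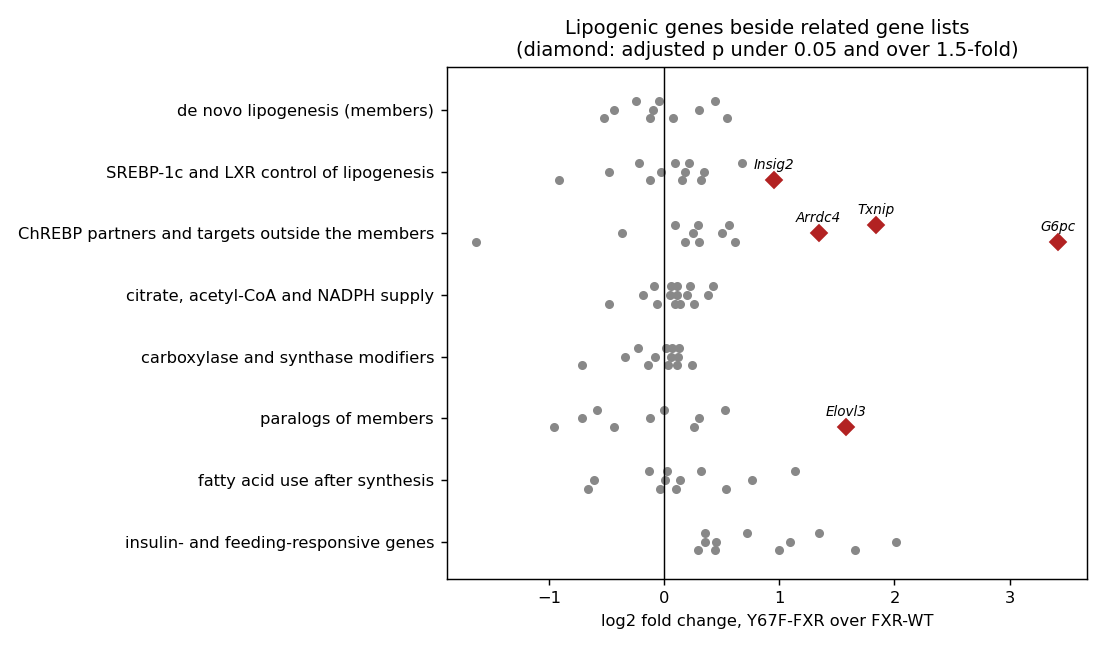
Log2 fold change, Y67F-FXR over FXR-WT (horizontal axis), of the tested genes of the lipogenic list and 7 related lists (rows); each point is a gene, and red diamonds are called genes. The lists of SREBP-1c and LXR and of insulin and feeding are shown in part. The lipogenic points lie between -0.52 and 0.54 with no diamond, whereas G6pc lies at 3.42.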

How the data were processed

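Total RNA from the livers of 6 mice, 3 per group, was sequenced as paired-end reads. Per the labels and file headers, the authors trimmed reads with Trimmomatic 0.36, aligned them with STAR 2.5.3a and assigned them to UCSC genes (mm9) by featureCounts 1.4.6-p4. The deposited counts are raw reads per gene, unstranded, with both mates of a pair adding to the count and multi-mapping or ambiguous reads excluded. A deposited table of the authors' comparison (log2 fold change, mean log2 CPM, p-value and false discovery rate per gene) was not used.

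The test was run with edgeR 4.0.16 in R 4.3.3 (filterByExpr, TMM factors, glmQLFit and glmQLFTest, group only), and figures were drawn with Python 3.11.15 and matplotlib 3.10.9. Of 23284 genes, 12453 were tested. The fits were tested on simulated counts. CPM are TMM-scaled, log2 CPM used a prior count of 2, and RPKM used the exon length in the count files. The common biological coefficient of variation was 0.194. Pairs of livers within a group differed by more than counting noise (median chi-square per gene 2.21 to 7.84). The labels give separate mice but nothing on litters or batches. The p-values weigh the group difference against the spread between these livers, moderated over all genes. A batch that followed the groups could not be told apart from them. Standard errors come from the F statistic. Alternatives were DESeq2 1.42.0, the likelihood ratio test, other scaling factors and filters, no fold minimum, the replicate block, gene length offsets (loess, span 0.3) and each liver left out. Promoters came from RefSeq on GRCm38.p6, and coordinates of genes from the count files (mm9).

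The 10 genes and the other lists were chosen with earlier results of these data known. Named were the 10 genes, Nr1h4, the 3 genes of each related list with the smallest adjusted p and every called one, and the 5 genes most like Fasn. Srebf1, the partner in a ratio, was named besides, and Fasn was the gene compared for likeness. Mlx, Fgf21 and the cell type markers were named outside this rule, after their values were seen. Not every gene under this rule is reported here, and 2 lists are given in part.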

Additional observations from a re-analysis of the deposited data

How the results depend on the processing

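None of the 10 lipogenic genes was called under any alternative or with any liver left out, and the lowest adjusted p was that of Mlxipl with gene length offsets (0.0892). Of 140 fold changes recomputed for these genes, 136 kept their sign. With livers left out, fold changes that crossed 0 were those of Thrsp (-0.065 to 0.25, below 0 without FXR-WT replicate 3, -0.059, or Y67F-FXR replicate 3), Acly (-0.21 to 0.013) and Acss2 (-0.11 to 0.0084), the last 2 above 0 without Y67F-FXR replicate 2. Then 4 to 7 of the genes had a lower fitted value, their median was -0.12 to 0.01, the ratio of Acss2 to Acly differed by -0.065 to 0.17 and that of Mlxipl to Srebf1 by -0.48 to 0.14.

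Over all genes, 121 were called, against 431 with DESeq2, 447 with the likelihood ratio test, 247 with gene length offsets, and 9 (without FXR-WT replicate 3) to 66 (without FXR-WT replicate 1) with a liver left out. The replicate block gave 8 calls and no lipogenic gene, and under it Insig2, Arrdc4, Txnip, G6pc and Elovl3 lost their calls (adjusted p 0.0887 to 0.149). The labels do not say whether livers with the same number belong together. Deviations of livers with the same number had correlations of -0.52, -0.08 and 0.12. Those of livers with different numbers ran from -0.59 (FXR-WT replicate 3 with Y67F-FXR replicate 2) to 0.58 (FXR-WT replicate 3 with Y67F-FXR replicate 1). With the length differences between libraries, these values cannot decide whether livers were paired. The cause of these differences in calls was not tested. With 3 livers a group, fold changes of the size seen in Fasn, Acacb and Mlxipl have wide intervals, and the intervals cover biological and technical spread together.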
